A study of Mus musculus with 12 samples.

Results

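Wild-type J1 mouse embryonic stem cells (mESCs) were compared in 2 culture media, 2i and serum, by sequencing of poly(A) RNA. The comparison rests on 6 of the 12 libraries of the series, 3 from J1 cells in 2i and 3 from J1 cells in serum, chosen by the cell line and medium in their labels. J1 is a male mESC line with no engineered change in this study. In serum, the cells grew on mitotically inactivated feeder cells in medium with 15% foetal calf serum and LIF at 500 U/ml, and the feeders were depleted by plating before cells were collected. In 2i, they grew in serum-free N2B27 medium with LIF at 1000 U/ml, the MEK inhibitor PD0325901 at 1 µM and the GSK3 inhibitor CHIR99021 at 3 µM. LIF was thus common to both groups, while basal medium, serum, feeders, LIF concentration (per the labels) and inhibitors all changed together and cannot be told apart. The other 6 libraries are from 3B3L cells in the same media, a line that lacks functional Dnmt3a and Dnmt3b genes and carries Dnmt3b and Dnmt3l transgenes. They entered the fit and are used below only where J1 is set beside them.

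Signalling through FGF receptors, MEK and ERK moves mESCs towards differentiation, and the MEK inhibitor blocks it. GSK3 marks β-catenin for destruction, so that the GSK3 inhibitor mimics a Wnt signal. LIF acts through STAT3 to keep mESCs self-renewing. Cells in serum are a mixture of naive and more advanced states, and cells in 2i are more uniform and resemble the inner cell mass of the blastocyst.

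The 6 J1 libraries held 37050133 to 43050142 estimated reads, so that 3 counts, used here as a floor, were 0.0684 to 0.0813 CPM (read counts scaled to a common library size with TMM factors). The mESC marker genes were present in every group: 10 of 10 markers were tested, and the transcript of Pou5f1, which encodes the pluripotency factor OCT4, stood at 1328 ± 7.24 in serum against 1262 ± 146 in 2i (CPM). Of 26 fibroblast markers, used to look for feeder RNA, 20 were tested. Lum had no read in any J1 library, and Postn, Dcn, S100a4, Prrx1 and Fap had at most 8 counts in a library. The summed level of the 20 tested markers was 1263 to 1558 CPM in the J1 serum libraries and 1803 to 2143 CPM in the J1 2i libraries, most of it from Fn1 and Vim. Without these 2 genes it was 133 to 149 CPM in serum and 54.7 to 56.2 CPM in 2i. The same 18 markers summed to a mean of 198 CPM in 3B3L cells in serum, which were grown on gelatin without feeders.

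Of 17885 genes tested, 5940 (33.2%) were called higher in 2i and 5880 (32.9%) lower, at an adjusted p under 0.05 by edgeR's quasi-likelihood test with Benjamini-Hochberg adjustment. Together 66.1% of genes were called, so that the count of called genes in a list is read against this share and the size of each change is given. Among the called genes, 44.2% changed by less than 1.5-fold. Against a 2-fold threshold (glmTreat of edgeR), 921 genes (5.15%) were higher and 1835 (10.3%) lower. The fall was thus the more frequent large change: 138 called genes were at least 8-fold higher in 2i and 521 at least 8-fold lower. The median log2 fold change over all genes tested was 0.01. In what follows, log2 fold changes are 2i minus serum, with ± standard error where given. Levels in CPM are single libraries or means, with ± SD where given (n = 3 libraries a medium). The words "rose", "fell" and "called" are used only of genes that passed this edgeR test.

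A whole chromosome stood apart. The 769 tested genes of chromosome 6 had a median log2 fold change of 0.44, a 1.36-fold higher level in 2i, and 58.5% of them rose while 20.4% fell. Among genes averaging 1 CPM or more, the chromosome 6 median was 0.49, 0.45 and 0.51 higher in the 3 J1 2i libraries than in J1 serum, while every J1 serum library lay within 0.03 of the other J1 serum libraries. The shift ran along the whole chromosome, with medians of 0.29 to 0.56 in windows of 20 Mb. In 3B3L cells the same chromosome differed by 0.11 between the media. J1 cells in 2i stood 0.42 above 3B3L cells in 2i on this chromosome, and J1 cells in serum differed from 3B3L cells in serum by -0.01. The medians of the other autosomes and of the X chromosome over all tested genes ran from -0.10 to 0.07 in the J1 comparison. DNA content was not measured, and a cause of the shift was not tested. Genes on chromosome 6 are marked below as such, since a change of about 0.44 is that of the chromosome as a whole. Without chromosome 6, 5490 genes (32.1%) were higher and 5723 (33.4%) lower, and the median was 0.00.

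**Figure D1:**
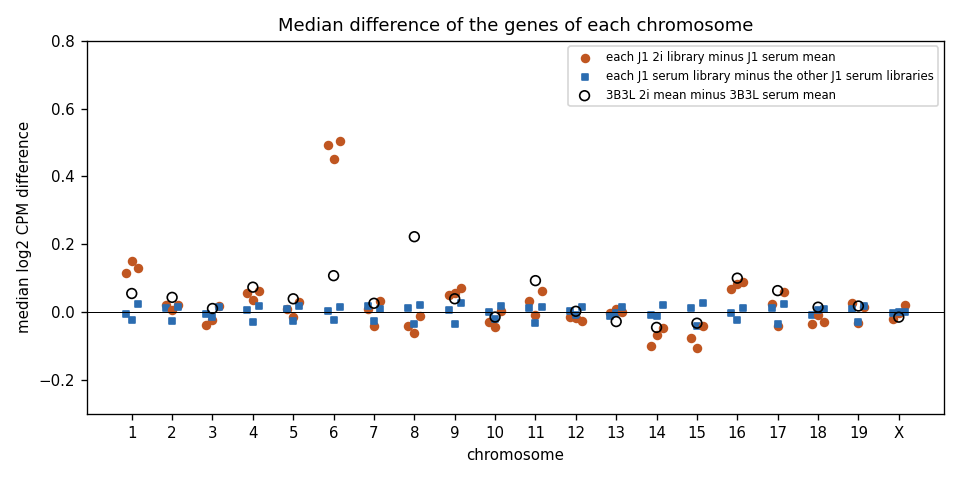
Median difference in log2 CPM of the genes of each chromosome (horizontal axis), for genes averaging 1 CPM or more. Filled circles are single J1 2i libraries against the J1 serum mean, squares are single J1 serum libraries against the other J1 serum libraries, and open circles are 3B3L cells in 2i against serum. On chromosome 6 the 3 J1 2i libraries lie at 0.45 to 0.51, apart from the squares near 0 and the open circle at 0.11.

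Among 26 genes that ERK signalling is known to induce, 2 rose and 24 fell. Their median log2 fold change was -1.54, against 0.01 over all genes, and 14 fell by more than 2-fold in the threshold test. Feedback inhibitors of the pathway were among them. Dusp6 (chromosome 10, 99263231 to 99267489, RefSeq annotation of GRCm38.p6, as for all gene positions here), which encodes a phosphatase that inactivates ERK, stood at 39.6, 39.3 and 38.8 CPM in the serum libraries and 7.88, 6.82 and 7.51 CPM in the 2i libraries. No serum library overlapped a 2i library, as for 68.7% of all genes tested, and the log2 fold change was -2.41 ± 0.062 (adjusted p = 2.75e-14, edgeR). Spry4, an inhibitor of receptor tyrosine kinase signalling, stood at 142, 134 and 137 CPM in the serum libraries and 32, 31.2 and 32.9 CPM in the 2i libraries, a change of -2.10 ± 0.046. Dusp4, another phosphatase of this family, fell further, from 44.1 to 1.74 CPM (-4.66 ± 0.11). Spry2, Spred1 and Spred2, inhibitors of the same pathway, fell by less, with log2 fold changes of -0.38, -0.39 and -0.30. The loss was thus uneven among feedback inhibitors.

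Immediate early transcription factors showed the same direction. Egr1 (chromosome 18) stood at 106, 89.4 and 102 CPM in the serum libraries and 6.68, 12.8 and 12.7 CPM in the 2i libraries, so that the lowest serum library was still several times the highest 2i library. Fos fell from 9.73 to 1.36 CPM and Fosb from 0.984 to 0.141 CPM. Egr2 stood at 0.908, 0.434 and 1.03 CPM in the serum libraries and 0.0228, 0.0918 and 0 CPM in the 2i libraries, and Dusp2 had a mean of 1.41 CPM in serum. In 2i the means of both were under the floor of 3 counts, so no fold is given for them, and every 2i library was under it for Dusp2 but not for Egr2. The ETS factors Etv1 and Etv5 fell by 0.71 and 0.61 on the log2 scale, while Etv4, of the same subfamily, rose slightly (58.2 to 71.2 CPM, 0.29 ± 0.062). Ccnd1, which encodes cyclin D1, was the other gene of the list called higher (117 to 130.0 CPM, 0.16 ± 0.058). With transcript length offsets its log2 fold change was -0.04, and neither there nor with the J1 libraries alone did it pass the test.

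FGF ligands and receptors, which lie upstream of ERK, had 14 genes tested, and 2 rose, 10 fell and 2 did not pass the test. The receptor Fgfr2 (chromosome 7, 130162451 to 130266808) was all but lost: it stood at 22.5, 20.4 and 22 CPM in the serum libraries and 0.228, 0.138 and 0.268 CPM in the 2i libraries, a log2 fold change of -6.66 ± 0.18 (adjusted p = 3.55e-14, edgeR). Fgfr3 and Fgfr4 fell by 0.67 and 1.11 on the log2 scale, whereas Fgfr1 was at 127 ± 7.94 in serum against 119 ± 2.63 in 2i (CPM) and did not pass the edgeR test (adjusted p = 0.103). Among ligands, Fgf15 fell from 21.4 to 0.782 CPM and Fgf17 from 41.8 to 11.1 CPM. Fgf4, the autocrine ligand of mESCs, rose slightly from 162 to 186 CPM (0.20 ± 0.043). Fgf5, a marker of the post-implantation epiblast, stood at 1.79, 1.66 and 1.19 CPM in the serum libraries and 0.0228, 0.023 and 0.122 CPM in the 2i libraries, with a 2i mean under the floor.

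**Figure D2:**
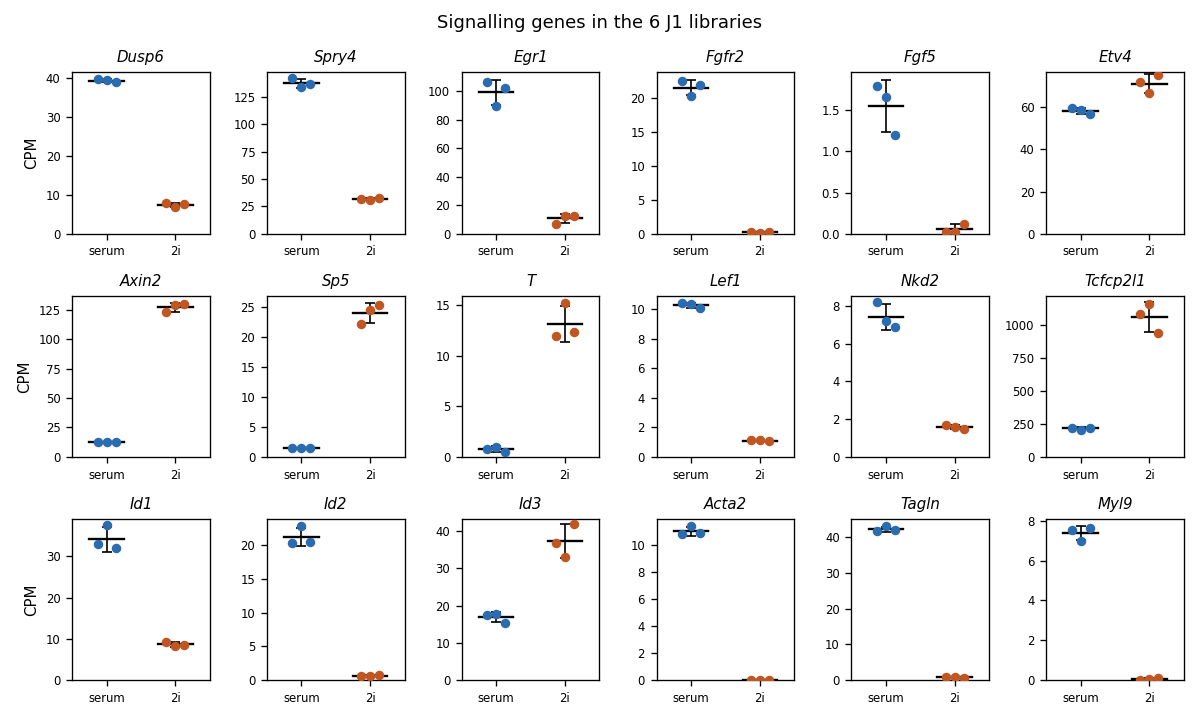
Level in CPM (vertical axis, starting at 0, a different scale in each panel) of 18 signalling genes in the 3 serum and 3 2i libraries of J1 cells. Points are libraries, horizontal lines are means and bars are SD. Serum and 2i libraries do not overlap in any panel, and Dusp6, Spry4, Egr1 and Fgfr2 are high in serum where Axin2, Sp5, T and Tcfcp2l1 are high in 2i.

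Genes of the serum response factor (SRF) programme, which encode the contractile and cytoskeletal proteins that SRF and its cofactors switch on, were also mostly lower. Of 19 tested, 1 rose, 17 fell and 1 did not pass the test, with a median of -1.31 (-1.75 without Zyx, which is on chromosome 6). The smooth muscle genes were close to absent in 2i. Acta2 (chromosome 19, 34240336 to 34255585), which encodes smooth muscle α-actin, stood at 10.8, 11.3 and 10.8 CPM in the serum libraries and 0.0456, 0.023 and 0.0244 CPM in the 2i libraries, with all 2i libraries under the floor. Tagln, which encodes transgelin, stood at 41.7, 43.1 and 42 CPM in the serum libraries and 0.98, 0.826 and 0.707 CPM in the 2i libraries, a log2 fold change of -5.65 ± 0.16 (adjusted p = 6.46e-14, edgeR). Cnn1, encoding calponin, fell from 7.19 to 0.0839 CPM, and Myl9, encoding a myosin light chain, stood at 7.52, 6.99 and 7.61 CPM in the serum libraries and 0.0228, 0.0459 and 0.0976 CPM in the 2i libraries, with a 2i mean under the floor. The widely expressed members moved less: Actg1 fell from 640.2 to 419.9 CPM, Actb from 1928 to 1733 CPM and Flna, encoding filamin A, from 646 to 418 CPM. Srf itself fell from 67.6 to 27.3 CPM (-1.31 ± 0.067). Vcl, encoding vinculin, stood at 152 ± 7.06 in serum against 153 ± 6.79 in 2i (CPM) and did not pass the test, and Csrp1 rose from 61.3 to 116 CPM. Some of these genes are also expressed by fibroblasts, whose markers were lower in 2i as well, with 16 of 20 called lower and a median of -2.56 (-2.23 with Twist2 and Col3a1, at the floor in 2i, set to their bound). In 3B3L cells, grown without feeders, the median of the fibroblast markers was -3.08.

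Promoters were searched for the sequence that SRF binds, the CArG box (CC, then 6 letters of A or T, then GG). RefSeq promoters of GRCm38.p6, from 250 bases before to 50 after a gene's start, were found for 17 of the 19 tested genes, and 8 of the 17 (47.1%) held a CArG box, against 1.81% of 27025 genes with a promoter. Its pattern is the same on both strands. It was found in Cnn2, Myl9, Vcl, Srf, Actg1, Filip1l, Acta1 and Actc1, of which all but Vcl fell, and in 2 of 17 ERK response genes with a promoter, Dusp5 and Egr2. The boxes of 5 genes are shown in capitals with 20 bases on either side, on the strand of the gene, because the first 4 belong to genes that fell and the last to Vcl, which did not pass the test.
Myl9, chr2:156775283-156775332, plus strand: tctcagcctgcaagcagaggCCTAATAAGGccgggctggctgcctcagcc
Cnn2, chr10:79988524-79988573, plus strand: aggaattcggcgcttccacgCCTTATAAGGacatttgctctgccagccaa
Actg1, chr11:120348556-120348605, minus strand: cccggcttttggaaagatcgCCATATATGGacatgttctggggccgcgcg
Srf, chr17:46556215-46556264, minus strand: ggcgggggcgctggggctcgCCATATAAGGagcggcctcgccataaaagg
Vcl, chr14:20929151-20929200, plus strand: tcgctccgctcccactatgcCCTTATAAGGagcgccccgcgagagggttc
Vcl, which moved by 0.00, thus carried the same 10 letters as Cnn2, which fell by 2.21 on the log2 scale. Srf holds a second box, left in lower case at the end of its line. A match is a description of the letters in this window only. The SRF list was written from general knowledge, so the share does not bear on the 2i response. Other motifs were searched on both strands in promoters of other lists. CTTTGAT stood in 2 of 13 Wnt feedback and target genes (15.4%), against 4.29% of all genes. CACGTG stood in 6 of 22 ribosome biogenesis genes (27.3%), against 8.09%. TTCNNNGAA stood in 1 of 14 LIF and STAT3 genes (7.14%), against 9.55%. TCACCCCAC stood in 0 of 15 cholesterol genes, against 0.614%.

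Targets of YAP and TEAD, which respond to cell shape and adhesion, followed a similar course. The list also holds the factor gene Tead4, which rose. Of its 18 genes, 4 rose, 12 fell and 2 did not pass the test, with a median of -0.78 (-1.13 without Tead4, on chromosome 6). Thbs1, encoding thrombospondin 1, stood at 27.8, 27.4 and 31.3 CPM in the serum libraries and 0.0911, 0.115 and 0.146 CPM in the 2i libraries (-7.91 ± 0.13). The matricellular genes Ctgf and Cyr61 fell from 51.8 to 7.21 CPM and from 24.3 to 2.14 CPM. The cofactor gene Yap1 fell by 0.32 on the log2 scale, from 152 to 122 CPM, while its paralogue Wwtr1, encoding TAZ, rose from 24.8 to 52.8 CPM. Tead4 rose from 24.3 to 94.7 CPM (1.96 ± 0.054), above the median of its chromosome.

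Wnt target genes, which lie downstream of GSK3 and β-catenin, split in both directions. Of 22 feedback and target genes, 9 rose, 8 fell and 5 did not pass the test, and the median was 0.10. Axin2 (chromosome 11, 108917828 to 108950783), a negative regulator that Wnt signalling induces, stood at 12.5, 12.4 and 12.6 CPM in the serum libraries and 123, 129 and 129.8 CPM in the 2i libraries. Every 2i library lay far above every serum library, with a log2 fold change of 3.35 ± 0.050 (adjusted p = 1.25e-16, edgeR). Sp5, a transcription factor gene induced by Wnt, stood at 1.55, 1.57 and 1.54 CPM in the serum libraries and 22.1, 24.6 and 25.4 CPM in the 2i libraries (3.95 ± 0.098). T, encoding brachyury, rose from 0.762 to 13.2 CPM (4.09 ± 0.18), and Cdx1 (chromosome 18) from 0.495 to 59 CPM (6.88 ± 0.15). On the other side, Lef1, which encodes a transcription factor that partners β-catenin, stood at 10.4, 10.3 and 10.1 CPM in the serum libraries and 1.12, 1.17 and 1.05 CPM in the 2i libraries (-3.21 ± 0.099). Nkd1 and Nkd2, feedback inhibitors of the pathway, fell from 3.9 to 2.05 CPM and from 7.43 to 1.58 CPM. Notum and Znrf3, secreted and membrane inhibitors, rose by 0.25 and 0.15. Lgr5 and Rnf43 did not pass the test (adjusted p = 0.869 and 0.492, edgeR) and stood at or under 2.1 CPM.

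Among 26 ligands, receptors and core components of the pathway, 9 rose, 13 fell and 4 did not pass the test. The ligand Wnt7b fell from 4.74 to 0.111 CPM (-5.40 ± 0.27) and Wnt4 and Wnt5a fell too, by 2.90 and 3.44 on the log2 scale. Wnt5b (chromosome 6) rose from 1.02 to 13.1 CPM and Wnt11 from 0.592 to 2.17 CPM. The receptor genes exchanged likewise. Fzd7 stood at 107, 103 and 115 CPM in the serum libraries and 28, 28 and 27.3 CPM in the 2i libraries, while Fzd10 stood at 6.62, 6.87 and 6.61 CPM in the serum libraries and 58.4, 59.6 and 56.2 CPM in the 2i libraries, so that the media did not overlap for either. Fzd2 fell by 1.92 and Fzd5 rose by 0.83 on the log2 scale. The core components moved little: Ctnnb1, encoding β-catenin, fell by 0.19, Apc did not pass the test, and Gsk3b, the gene of a kinase the inhibitor targets, rose by 0.52. Tcf7l1 (chromosome 6), a repressor of Wnt targets, fell from 94.5 to 57.5 CPM.

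LIF and STAT3 genes gave no common direction: of 16, 5 rose, 5 fell and 6 did not pass the test. Tcfcp2l1 (now Tfcp2l1; chromosome 1, 118627923 to 118685168), a naive transcription factor gene downstream of STAT3, stood at 221, 208 and 221 CPM in the serum libraries and 1088, 1162 and 941 CPM in the 2i libraries, and its log2 fold change was 2.30 ± 0.070 (adjusted p = 1.66e-13, edgeR). Klf4, another factor of this branch, rose from 98.6 to 279.9 CPM, and Stat3 itself from 128 to 194 CPM. The feedback inhibitor Socs3, a direct STAT3 target, fell from 151 to 107 CPM (-0.49 ± 0.059), as did Junb and Pim3. The receptor genes Lifr and Il6st did not pass the test, with log2 fold changes of -0.08 and -0.12.

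Inhibitor of differentiation (Id) genes, which BMP signalling induces in serum, moved apart. Id1 stood at 33, 37.6 and 31.9 CPM in the serum libraries and 9.25, 8.15 and 8.56 CPM in the 2i libraries (-1.98 ± 0.10) and Id2 at 20.3, 22.8 and 20.6 CPM in the serum libraries and 0.57, 0.551 and 0.756 CPM in the 2i libraries (-5.08 ± 0.13). Id3 went the other way, at 17.5, 17.8 and 15.4 CPM in the serum libraries and 36.9, 33.1 and 42 CPM in the 2i libraries (1.14 ± 0.095), with no overlap between media for any of the 3 genes. Of the whole BMP list of 17, 6 rose, 4 fell and 7 did not pass the test. Smad9, encoding a signal transducer of the pathway, rose from 0.571 to 5.86 CPM, and Bmp4 was at 20.6 ± 1.07 in serum against 19.2 ± 0.784 in 2i (CPM) and did not pass the test.

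Nodal pathway genes were likewise split. Of 17, 6 rose, 6 fell and 5 did not pass the test. Lefty1, a Nodal inhibitor that Nodal induces, stood at 244, 251 and 243 CPM in the serum libraries and 31.5, 35.2 and 38.6 CPM in the 2i libraries (-2.81 ± 0.069). Its neighbour and paralogue Lefty2 stood at 275, 286 and 268 CPM in the serum libraries and 226, 295 and 331 CPM in the 2i libraries, and the media did not differ by the test (0.04 ± 0.092, adjusted p = 0.704, edgeR). The level of Nodal rose from 50.2 to 70.9 CPM, and that of Pcsk6, which encodes a protease that processes Nodal, from 37 to 114 CPM. Skil, a SMAD corepressor gene, fell from 164 to 39.98 CPM. Gdf1, which is counted among the 6 that fell, is transcribed with Cers1. Reads of these genes are hard to assign, so no direction is drawn for Gdf1.

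Notch and Hedgehog genes were mostly lower, with a median of -1.21: of 21, 2 rose, 15 fell and 4 did not pass the test. The Hedgehog readouts Gli1, Ptch1 and Hhip fell together. Gli1 stood at 98.3, 93.6 and 94.8 CPM in the serum libraries and 25.9, 22.3 and 21.7 CPM in the 2i libraries (-2.04 ± 0.074), and Ptch1, encoding the Hedgehog receptor, at 142, 126 and 145 CPM in the serum libraries and 30.1, 32.1 and 24.7 CPM in the 2i libraries (-2.25 ± 0.086). Gli2, which encodes the upstream activator, rose from 79.7 to 115 CPM. The Notch ligands Dll1, Dll3 and Jag2 fell, Dll1 from 9.97 to 0.256 CPM (-5.26 ± 0.19). The Notch effector Hey1 fell from 6.29 to 1.37 CPM, but Hes1 rose from 21.7 to 45.9 CPM (1.08 ± 0.063). Among retinoic acid genes, 9 of 17 fell and 4 rose. Rarg, a retinoic acid receptor gene, fell from 172 to 42.4 CPM, and Tgm2, a target gene that encodes transglutaminase 2, rose from 9.98 to 37 CPM.

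**Figure D3:**
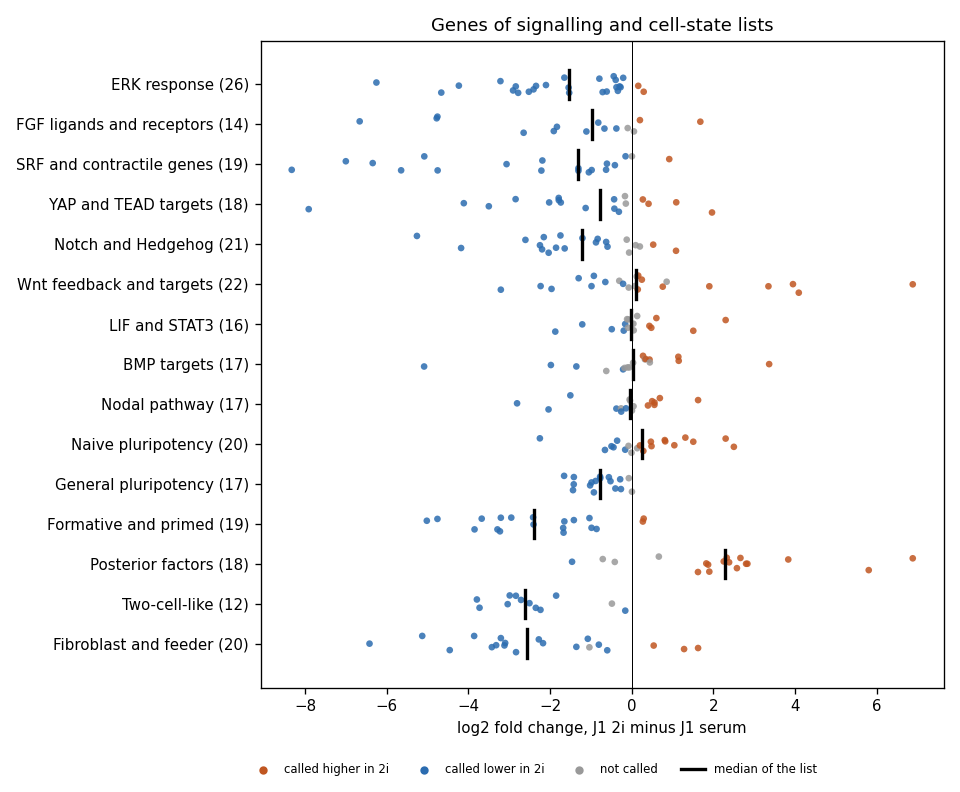
Log2 fold change between 2i and serum in J1 cells (horizontal axis) of each tested gene in 15 lists (rows, with the number of genes tested). Points are genes, coloured by the call of the edgeR test, and the vertical bar is the median of the list. The medians of the ERK response, SRF, formative, 2-cell-like and fibroblast lists lie below -1, that of the posterior factors lies above 2, and Wnt, LIF, BMP and Nodal genes lie on both sides of 0.

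Pluripotency genes separated by class. Of 20 naive genes, 11 rose, 6 fell and 3 did not pass the test, with a median of 0.24. Tbx3, a naive transcription factor gene, stood at 37.8, 39.3 and 39.9 CPM in the serum libraries and 230.2, 222 and 209 CPM in the 2i libraries (2.50 ± 0.057), and Prdm14 rose from 17.2 to 42.6 CPM and Nr5a2 from 50.2 to 87.8 CPM. Nanog (chromosome 6) rose from 307 to 631 CPM, with 1.04 on the log2 scale against a chromosome median of 0.44. Not all naive markers were higher: Zfp42, encoding REX1, fell from 944 to 736 CPM, Klf2 from 371 to 272 CPM, and Dppa3 (chromosome 6), also a germline factor gene, from 39 to 8.19 CPM (-2.25 ± 0.076). None of the 17 general pluripotency genes rose by edgeR, by DESeq2 or at an unadjusted p under 0.05, and 15 fell, with a median of -0.78. Lin28a, encoding an RNA-binding protein that blocks let-7 maturation, stood at 390.1, 384 and 379.7 CPM in the serum libraries and 137, 145 and 149 CPM in the 2i libraries, and Utf1 fell from 258 to 81.8 CPM. Sox2 fell from 358 to 209 CPM.

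Genes of the formative and primed states, which follow naive pluripotency in the embryo, were lower almost throughout: of 19, 2 rose and 17 fell, with a median of -2.41. Otx2, encoding a homeodomain factor of the epiblast, stood at 41.2, 40.8 and 39.4 CPM in the serum libraries and 2.55, 3.05 and 2.8 CPM in the 2i libraries (-3.85 ± 0.087). Pou3f1, encoding OCT6, fell from 20.04 to 0.619 CPM (-5.02 ± 0.14), Grhl2 from 40.7 to 3.18 CPM and Tcf15 from 43.4 to 4.43 CPM. The genes called higher were Tead2 and Etv4, by 0.27 and 0.29, and Tead2 no longer passed the test with transcript length offsets (0.12).

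Lineage markers did not move as one. Of 20 primitive endoderm genes, 6 rose, 7 fell and 7 did not pass the test, with a median of -0.46. Among the matrix genes of the list, Col4a1 and Col4a2, encoding the chains of collagen IV, fell from 51.3 to 10.1 CPM and from 24.4 to 3.95 CPM, while Lamc1, Sparc and Lama1 rose, Lama1 from 109 to 179.5 CPM. The lineage factor Gata6 stood at 0.353 ± 0.191 in serum against 0.186 ± 0.08 in 2i (CPM) and did not pass the test, and Gata4 rose from 2.23 to 4.14 CPM. In the trophoblast list, of 20 genes, 5 rose, 12 fell and 3 did not pass the test. Those that fell include Hand1 and the keratins Krt18 and Krt19. Eomes, shared by trophoblast and mesendoderm, stood at 2.94, 2.7 and 2.95 CPM in the serum libraries and 25.7, 28.1 and 30.6 CPM in the 2i libraries (3.30 ± 0.081). Of 12 tested neuroectoderm genes, 10 fell, Pax6 from 8.17 to 0.32 CPM, and 1 rose, Meis2 from 0.984 to 14.9 CPM. Another 9 of that list were too low to test.

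Posterior patterning factors, Hox genes and their Cdx regulators, were the list with the highest median, 2.29. Of 37 genes, 18 were tested and 14 rose, 1 fell and 3 did not pass the test. Another 18 had at most 15 counts in any J1 library, and Hoxd4 was not analysed here. A gene passes the filter on low counts more easily when it is high in 1 medium, so the tested genes are not a sample of the list. Besides Cdx1, Hoxc4 stood at 0.0716, 0.0723 and 0.0271 CPM in the serum libraries and 3.24, 3.53 and 3.46 CPM in the 2i libraries, with every serum library at 3 counts or fewer. Hoxc13, at the end of the cluster, rose from 1.26 to 8.96 CPM and Hoxb9 from 0.461 to 2.43 CPM. Cdx4 fell from 0.3 to 0.108 CPM. Hoxd13 stood at 0.191, 0.627 and 0.325 CPM in the serum libraries and 0.82, 0.459 and 0.537 CPM in the 2i libraries and passed the test only when the second serum library was left out (1.24). Most of these levels were under 4 CPM, and Cdx1 at 59 CPM stood apart.

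Genes of the 2-cell-like state, which rare cells in serum cultures enter, were mostly lower. Of 20 names, 14 were matched and 12 tested, and the other 2 had at most 8 counts in any J1 library. Of the 12, 11 fell, with a median of -2.61. None rose by edgeR, by DESeq2 or at an unadjusted p under 0.05. Most stood under 1 CPM in serum and several near the floor in 2i, so the size of the median is uncertain. As for the Hox genes, the filter on low counts favours genes high in 1 medium. Zscan4c fell from 3.96 to 0.296 CPM and Zscan4f from 7.26 to 0.523 CPM. These genes have near-identical copies, so the split of reads between them is uncertain. In bulk RNA, fewer cells in that state and less RNA per cell cannot be told apart, here and for each list above.

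Adhesion and matrix genes exchanged members. Of 23 epithelial genes, 7 rose, 12 fell and 4 did not pass the test. The splicing regulator gene Esrp1 stood at 59.6, 59.8 and 62.3 CPM in the serum libraries and 2.16, 1.88 and 1.9 CPM in the 2i libraries (-4.93 ± 0.072), Cldn6 fell from 60.4 to 4.18 CPM and Epcam from 153 to 34.4 CPM, while Cdh1, encoding E-cadherin, rose slightly from 728 to 797 CPM. Krt8 rose from 60.4 to 113 CPM and its partner Krt18 fell from 39.7 to 11 CPM. All 24 tested integrin, laminin and related genes were called, 11 higher and 13 lower. Laminin β1 (Lamb1) fell from 162 to 24.3 CPM, and laminin β2 (Lamb2) rose from 30.9 to 62.4 CPM. The integrin gene Itga3 fell from 95 to 38.5 CPM and Itga5, whose product binds fibronectin, rose from 63 to 99.8 CPM. Nid1, encoding nidogen 1, rose from 129 to 378 CPM, and Fn1, encoding fibronectin, from 1190.1 to 1726 CPM.

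Of 21 genes of DNA methylation and its removal, 8 rose, 9 fell and 4 did not pass the test. The 3 de novo genes fell, and Dnmt3l, the cofactor, stood at 285, 285 and 285 CPM in the serum libraries and 55.5, 47.9 and 55.1 CPM in the 2i libraries (-2.43 ± 0.063). Dnmt3a fell from 166 to 41.5 CPM. The maintenance enzyme gene Dnmt1 rose from 365 to 462 CPM and Uhrf1, whose product brings DNMT1 to replicated DNA, stood at 395, 379 and 396 CPM in the serum libraries and 826, 813 and 847 CPM in the 2i libraries (1.09 ± 0.046). Tet2 rose from 99.6 to 176 CPM and Tet1 fell from 464 to 363 CPM. With the 5 chromosome 6 members left out, 5 genes rose and 8 fell.

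Polycomb genes, whose products repress developmental genes, gave 32 tested members, of which 14 rose, 10 fell and 8 did not pass the test (10 higher and 9 lower without chromosome 6). Skida1, Phf19 and Bmi1 were among the members that changed most. Bmi1 stood at 2.48, 2.6 and 2.01 CPM in the serum libraries and 12, 13.7 and 12.5 CPM in the 2i libraries (2.42 ± 0.12), and Skida1 (2810030E01Rik in the table) rose from 0.531 to 5.47 CPM. Phf19, a PRC2 accessory gene, stood at 22, 19.6 and 20.8 CPM in the serum libraries and 3.71, 3.37 and 3.54 CPM in the 2i libraries (-2.55 ± 0.091), and Jarid2, another, fell from 533 to 240.1 CPM. The core genes moved by less: Eed fell by 0.35 and Suz12 rose by 0.57, and Ezh2 (chromosome 6) rose by 0.76 on the log2 scale. By contrast, 13 of 16 CTCF and cohesin genes did not pass the test. Ctcf stood at 189.5 ± 2.92 in serum against 189.7 ± 1.43 in 2i (CPM). The exceptions were Stag1 and Stag3, which rose, Stag3 from 62.8 to 143 CPM, and the meiotic Smc1b, which fell from 7.79 to 3.94 CPM. Of 18 genes of H3K9 methylation and KAP1, 8 rose and 9 fell, all by less than 2-fold.

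Germline genes that DNA methylation silences in somatic cells moved in both directions. Of 27, 10 rose, 13 fell and 4 did not pass the test, with a median of -0.09. Of the 10 higher genes 5 were on chromosome 6 (Asz1, Stk31, Tuba3a, Tuba3b and Stra8), and without them 5 rose, 13 fell and the median was -0.74. Dazl, an RNA-binding germ cell gene, stood at 3.82, 3.47 and 4.66 CPM in the serum libraries and 9.57, 11.1 and 9.37 CPM in the 2i libraries (1.34 ± 0.13). Ddx4, encoding VASA, stood at 15.5, 15.9 and 16.3 CPM in the serum libraries and 6.13, 6.43 and 5.61 CPM in the 2i libraries (-1.39 ± 0.070), and Tdrd1 fell from 4.47 to 0.294 CPM, Mael from 8.16 to 2.15 CPM and Sycp3 from 6.41 to 2.63 CPM. Imprinted genes were lower in 21 of 36 tested and higher in 10, with a median of -0.52. The H19 transcript went from 67 CPM to a mean near the floor, 0.0778 CPM, and Igf2, its neighbour, stood at 18.6, 17.8 and 19.3 CPM in the serum libraries and 0.706, 0.757 and 0.512 CPM in the 2i libraries (-4.81 ± 0.10). Peg10 (chromosome 6) fell from 296 to 20.8 CPM and Cdkn1c, a CDK inhibitor gene, from 23.4 to 1.46 CPM. Plagl1, encoding a zinc finger factor, rose from 4.42 to 63.6 CPM (3.84 ± 0.11). Meg3 was at 135 ± 8.01 in serum against 131 ± 12.7 in 2i (CPM) and did not pass the test.

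Cell cycle genes moved in both directions. Of 20 G1 genes, 11 rose, 6 fell and 3 did not pass the test. Ccnd2 (chromosome 6), encoding cyclin D2, stood at 21, 21.7 and 20.1 CPM in the serum libraries and 0.638, 0.643 and 0.78 CPM in the 2i libraries (-4.93 ± 0.097), and Ccnd3 rose from 131 to 220.2 CPM. Cyclin E1 (Ccne1) fell from 234 to 139 CPM. The CDK inhibitor genes moved apart. While Cdkn1c fell, as given above, Cdkn1a, encoding p21, stood at 42, 40.4 and 44.6 CPM in the serum libraries and 147, 144 and 159.5 CPM in the 2i libraries (1.83 ± 0.053), and Cdkn2a rose from 6.95 to 29 CPM. The p21 gene is a p53 target. Of the 24 tested genes of the p53 list, which holds targets and Trp53, 17 fell and 3 rose, Cdkn1a included. A part of p53 in these changes was not tested. Bbc3, encoding the pro-apoptotic PUMA, fell from 39.4 to 10.1 CPM, Mdm2 from 105 to 65.3 CPM and Trp53 itself from 505 to 282 CPM. Of 25 genes of mitosis and replication, 13 rose, 5 fell and 7 did not pass the test, with a median of 0.16. The replication genes Mcm6 and Rrm2 rose, Rrm2 from 203 to 344 CPM, and Mcm7 did not pass the test. The mitotic genes Cdc20 and Plk1 fell, Cdc20 from 313 to 182 CPM, whereas Mki67, Aurkb, Cdk1, Ccnb2, Cenpa and Bub1 did not pass the test.

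Mycn and Myc were lower, and most ribosome genes were lower by smaller steps. Mycn stood at 276, 277 and 276 CPM in the serum libraries and 67.1, 64.2 and 72.1 CPM in the 2i libraries (-2.03 ± 0.054) and Myc at 49.4, 46.8 and 40.9 CPM in the serum libraries and 12.2, 14.5 and 17 CPM in the 2i libraries (-1.65 ± 0.11). In the MYC network, 3 rose, 11 fell and 3 did not pass the test, of 17. The list also holds genes of factors that oppose MYC, so its count gives no direction of MYC activity. Of these, Mxd4 had the largest fall of the list, from 5.29 to 0.599 CPM (-3.14 ± 0.19). Mxi1 and Mnt fell too, and Mxd1 and Mxd3 did not pass the test. Of 26 ribosome biogenesis genes, 2 rose, 21 fell and 3 did not pass the test, with a median of -0.32. Both genes called higher, Nop2 and Polr1a, are on chromosome 6. Ncl, encoding nucleolin, fell from 2995 to 2416 CPM and Npm1, encoding nucleophosmin, from 4447 to 3239 CPM (-0.46 ± 0.054). Of 35 large-subunit ribosomal protein genes, 1 rose, 23 fell and 11 did not pass the test, and Rpl32, the gene called higher, is on chromosome 6 and did not pass the test without the third 2i library (0.18). These genes have many processed copies in the genome, which can share their reads, so that single levels are uncertain. The median of -0.27 corresponds to less than 1.5-fold.

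Of 27 glycolysis genes, 12 rose, 13 fell and 2 did not pass the test, with 7 higher and 12 lower without chromosome 6. The lower genes include lower glycolysis and lactate export: Eno1 stood at 1939.6, 1823 and 1896 CPM in the serum libraries and 1027, 1053 and 1295 CPM in the 2i libraries (-0.75 ± 0.075), Ldha fell from 1789.7 to 1138 CPM, Pkm2 (now Pkm) from 4256 to 2965 CPM, and the lactate transporter Slc16a3 from 227 to 113 CPM. Hk1, encoding a hexokinase, rose from 67.5 to 198 CPM, and Brp44l and Brp44 (now Mpc1 and Mpc2), which encode the carrier of pyruvate into mitochondria, rose from 10.4 to 20.8 CPM and from 7.74 to 12.4 CPM. The glucose transporters diverged: Slc2a1 fell from 636 to 427 CPM, and Slc2a3 (chromosome 6) rose from 1213 to 2350.2 CPM (0.95 ± 0.062), the largest gain in CPM of any gene tested.

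Most nuclear genes of the TCA cycle and respiratory chain lists were higher by small and regular steps. In the TCA cycle list, 18 rose, 2 fell and 4 did not pass the test, of 24, with a median of 0.26. The list also holds genes of cytosolic enzymes, among them Acly, Aco1, Idh1 and Mdh1, which rose. Sdhb, encoding a succinate dehydrogenase subunit, stood at 110.3, 115 and 119 CPM in the serum libraries and 154, 142 and 171 CPM in the 2i libraries (0.44 ± 0.066). Pcx, encoding pyruvate carboxylase, fell from 44.1 to 24.3 CPM. Of 29 nuclear respiratory chain genes, 22 rose and none fell, with a median of 0.28. None fell at an unadjusted p under 0.05 or by DESeq2. Uqcrb stood at 74.7, 78.7 and 78.9 CPM in the serum libraries and 108, 110.1 and 125 CPM in the 2i libraries (0.56 ± 0.060). The 13 genes of the mitochondrial genome did not follow. None was called by edgeR or DESeq2, none had an unadjusted p under 0.05 in edgeR, and the median was -0.06. Their transcripts, read through poly(A) selection, spread more between libraries: mt-Co1 stood at 5431, 6053 and 4907 CPM in the serum libraries and 4876, 5556 and 4281 CPM in the 2i libraries, and the media overlapped.

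Of 27 fatty acid genes, 19 rose, 7 fell and 1 did not pass the test, with a median of 0.37. Desaturase and elongase genes were among the largest increases. Scd1, encoding stearoyl-CoA desaturase, stood at 135, 131 and 137 CPM in the serum libraries and 484, 492 and 446 CPM in the 2i libraries (1.82 ± 0.048), and Scd2, its paralogue, at 695, 675 and 738 CPM in the serum libraries and 1839, 1910.5 and 1752 CPM in the 2i libraries (1.38 ± 0.054). Fads1 and Fads2, the desaturases of polyunsaturated fatty acids, rose from 87.5 to 192 CPM and from 57.1 to 126 CPM, and Elovl6 from 107 to 166 CPM. Me1, whose enzyme supplies NADPH, rose from 40.6 to 119.7 CPM, as did the regulator Srebf1 from 133 to 248 CPM. The first committed steps did not share this: Fasn fell slightly from 926 to 829 CPM and Acaca from 215 to 184 CPM. Of 23 cholesterol genes, 16 rose and 2 fell (Hmgcs1 was not analysed here), with a median of 0.31. Ebp, a sterol isomerase gene, rose from 15.7 to 49.3 CPM (1.65 ± 0.075).

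**Figure D4:**
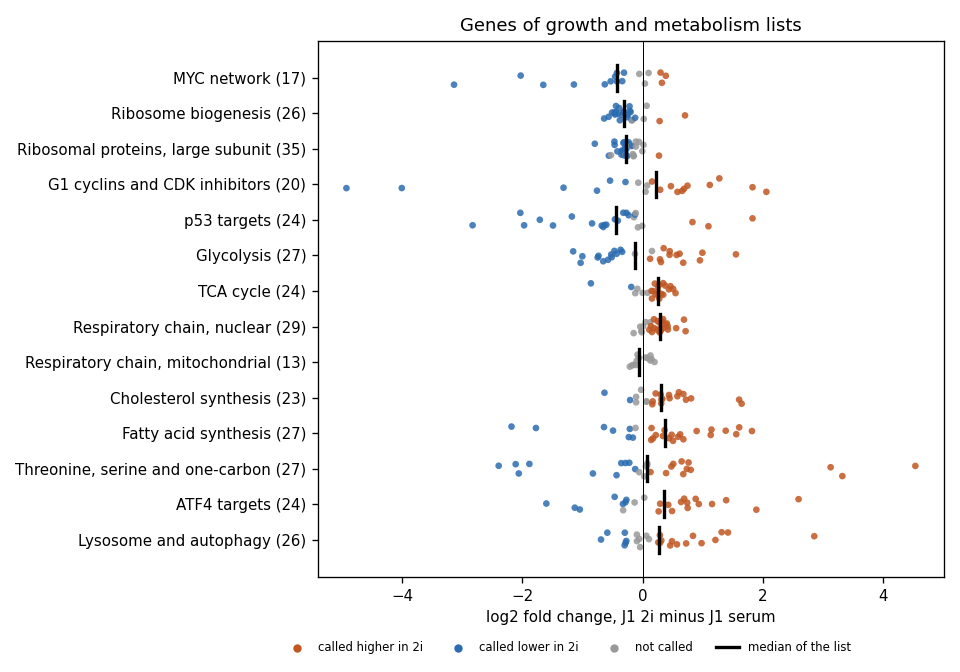
Log2 fold change between 2i and serum in J1 cells (horizontal axis) of each tested gene in 14 growth and metabolism lists (rows, with the number of genes tested). Points are genes, coloured by the call of the edgeR test, and the vertical bar is the median of the list. Medians of the ribosome lists lie near -0.3, those of the TCA cycle, nuclear respiratory chain and lipid lists lie at 0.26 to 0.37, and none of the genes of the mitochondrial genome is called.

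One-carbon metabolism changed at its edges. Of 27 genes, 12 rose, 10 fell and 5 did not pass the test. The betaine branch rose from low levels: Dmgdh, encoding dimethylglycine dehydrogenase, stood at 0.502, 0.771 and 0.596 CPM in the serum libraries and 15, 14.9 and 13.7 CPM in the 2i libraries (4.54 ± 0.11), and Bhmt, encoding betaine-homocysteine methyltransferase, rose from 0.37 to 3.77 CPM. Gldc, encoding the glycine decarboxylase, stood at 488, 468 and 495 CPM in the serum libraries and 142, 126 and 125 CPM in the 2i libraries (-1.88 ± 0.052). Tdh, encoding the threonine dehydrogenase on which mESCs depend, rose from 572 to 798 CPM, and its partner Gcat from 76.4 to 133 CPM.

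ATF4 is the transcription factor of the amino acid response. Of 24 genes, its own and its targets, 14 rose and 7 fell, with a median of 0.36. Nupr1 stood at 12.9, 11.3 and 13.9 CPM in the serum libraries and 88.7, 65.1 and 75.9 CPM in the 2i libraries (2.59 ± 0.10). Asns (chromosome 6), encoding asparagine synthetase, stood at 299, 299.8 and 304 CPM in the serum libraries and 1181, 1091 and 1078 CPM in the 2i libraries (1.89 ± 0.053), well above its chromosome. Atf4 rose from 225 ± 5.54 to 430.1 ± 39.5 CPM. Trib3 rose from 37.3 ± 1.47 to 68.8 ± 16.3 CPM and Vldlr from 5.81 ± 0.357 to 15.2 ± 4.06 CPM. For each of these genes the first 2i library was the highest. Slc38a2, an amino acid transporter gene and also a target, fell from 326 to 107 CPM (-1.60 ± 0.087). Promoters were found for 20 of the 24 genes. The letters TGATGCAA, an ATF4 motif, stood on either strand in 7 of the 20 (35%), against 1.03% of all genes, and on the strand of the gene in 1 of the 20, against 0.596%. The list was written from general knowledge of ATF4 targets, so this share does not bear on the response to 2i. The 7 genes were Atf3, Chac1, Slc7a11, Slc1a4, Vldlr, Nupr1 and Aars. Matches are shown in capitals for 4 genes, again on the strand of the gene, because the first 3 rose and Slc7a11, with 2 matches of which the first is in capitals, fell. The capitals TTGCATCA are the motif read on the opposite strand.
Nupr1, chr7:126625553-126625600, minus strand: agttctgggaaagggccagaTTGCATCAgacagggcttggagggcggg
Vldlr, chr19:27216800-27216847, plus strand: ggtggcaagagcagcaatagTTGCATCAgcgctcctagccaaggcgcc
Atf3, chr1:191183416-191183463, minus strand: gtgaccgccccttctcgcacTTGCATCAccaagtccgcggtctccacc
Slc7a11, chr3:50443652-50443699, minus strand: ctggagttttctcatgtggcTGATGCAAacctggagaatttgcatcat
Slc7a11, encoding the cystine transporter, fell from 20.9 to 15.2 CPM (-0.46 ± 0.14). Of the 7 genes with the motif, 6 rose and Slc7a11 fell.

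Amino acid transporters moved both ways: of 19, 8 rose, 9 fell and 2 did not pass the test. Slc7a1, carrying cationic amino acids, rose from 90.3 to 248 CPM, and Slc1a5, carrying glutamine, from 60.7 to 152 CPM. Slc1a3, a glutamate transporter gene, fell from 17.1 to 1.39 CPM (-3.62 ± 0.11). Lysosome and autophagy genes were higher in 14 of 26 and lower in 6 (11 and 6 without chromosome 6). Lamp2, encoding a lysosomal membrane protein, stood at 29.5, 31.7 and 29.1 CPM in the serum libraries and 79.5, 89.9 and 72.5 CPM in the 2i libraries (1.42 ± 0.11), Ctsb, encoding cathepsin B, rose from 88.4 to 220.0 CPM, and the regulator Mitf (chromosome 6) from 6.6 to 47.7 CPM (2.86 ± 0.088), whereas its relative Tcfe3 (now Tfe3) fell from 130.0 to 80.5 CPM.

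Stress lists moved in both directions. Antioxidant and NRF2 genes rose in 12 and fell in 12 of 26. Nqo1, a quinone reductase gene, stood at 20.8, 24.3 and 19 CPM in the serum libraries and 90.8, 86.8 and 101 CPM in the 2i libraries (2.12 ± 0.077). Gsto1, a glutathione transferase gene, was at 40.1, 42.9 and 40.2 CPM in the serum libraries and 5.83, 4.89 and 5.93 CPM in the 2i libraries (-2.89 ± 0.085). The metallothioneins Mt1 and Mt2 rose from 166 to 353 CPM and from 241 to 524 CPM. Among 21 genes of iron and selenium, 12 fell, the transferrin receptor gene Tfrc from 319.9 to 248 CPM, and 6 rose, the selenoprotein gene Gpx1 from 128 to 393 CPM. Chaperone genes fell in 12 and rose in 5 of 25, Hspa8 from 5099 to 3852 CPM. Hypoxia genes fell in 12 and rose in 6 of 21, with Bnip3 down from 118 to 65.2 CPM and Vegfa up from 39.3 to 81.2 CPM. Antigen presentation and interferon genes fell in 12 and rose in 5 of 22. Psmb8, of the immunoproteasome, stood at 4.3, 4.03 and 4.99 CPM in the serum libraries and 0.159, 0.138 and 0.244 CPM in the 2i libraries (-4.60 ± 0.22), Tap1 fell from 5.31 to 1.17 CPM, and Oas1a rose from 9.42 to 34.2 CPM.

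Few genes were read in only 1 medium. A gene was counted when each library of a medium had at least 1 CPM and each library of the other at most 3 counts. In 2i alone there were 3, Tlx2 (chromosome 6), Hoxc4 and Hoxc12, all homeobox genes. In serum alone there were 27, among them Acta2, the carbonic anhydrase gene Car4, the lysophospholipase gene Enpp2, and Tnfsf11, encoding RANKL. Tlx2 was read at 0, 0 and 0 CPM in the serum libraries and 13.7, 13.2 and 13.9 CPM in the 2i libraries. Without the third J1 serum library, which was the shallowest, the first count was 8. With at least 2 CPM in each library, the second was 12.

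The genes with the highest log2 fold change at 10 CPM or more in 2i were, besides Tlx2, Cdx1 and Dmgdh, the homeobox gene Nkx1-2 (from 0.446 to 48.3 CPM), the ion channel gene Pkd2l1 (from 0.514 to 31.3 CPM) and Pou2f3, a tuft cell transcription factor gene (from 2.23 to 61 CPM). The lowest were H19, Acta2, Thbs1, Fndc3c1 (from 16 to 0.118 CPM) and Fgfr2. Over all genes, gains summed to 102045 CPM and losses to -109938 CPM. The 10 largest gains made up 7043 CPM, and Scd2, Tcfcp2l1, Asns, Bcat1, Uhrf1 and Ckb were among them with Slc2a3. The 10 largest losses made up -10156 CPM and included Hsp90ab1, Hspa8, Npm1, Eef2 and Pkm2. Creatine kinase B (Ckb) stood at 225, 217 and 222 CPM in the serum libraries and 641, 591 and 687 CPM in the 2i libraries (1.53 ± 0.063), and Bcat1 (chromosome 6), encoding a branched-chain aminotransferase, at 269.8, 255 and 265 CPM in the serum libraries and 782, 751 and 753 CPM in the 2i libraries (1.54 ± 0.043). Gm3200, Gm5506 and Gm12715 were also in these sets, but the first and the last are pseudogenes, and all are uncertain because near-identical copies can share their reads.

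The response was set beside that of 3B3L cells, in which 65.4% of genes were called between the same media. The difference of the 2i effects between the lines was called for 34.7% of genes with no fold threshold and for 1.70% at a 2-fold threshold. Among the 283 genes picked by the naming rule, 31 differed at that threshold, and some of the strongest belong to the groups above. Otx2 fell by 3.85 on the log2 scale in J1 and by 1.74 in 3B3L, and Dll1 by 5.26 in J1 and by 9.13 in 3B3L. Line, transgenes and culture surface differ together between J1 and 3B3L in serum and cannot be told apart.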

How the data were processed

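RNA from J1 and 3B3L mESCs in serum or 2i was sequenced as stranded poly(A) libraries, with 3 replicates in each of 4 groups, taken from the sample labels. The authors' methods describe the replicates as biological, and neither they nor the labels say how the cultures were separated, so p-values measure the spread between these libraries. The authors quantified transcripts with Sailfish on mm10 transcript models and deposited estimated counts that tximport summed over the transcripts of each gene, not scaled by library size. The deposited transcript tables hold TPM, estimated counts and effective lengths from the authors' quantification. Effective lengths, weighted by TPM, were used only for length offsets. The transcript counts were used only for the share of reads matched to genes. No test of differential expression by the authors was used.

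Estimated counts were rounded, 17885 of 39017 genes passed filterByExpr, and a quasi-likelihood model with TMM factors and a separate coefficient for each group took in all 12 libraries, with edgeR (version 4.0.16, R 4.3.3). The contrast was J1 2i minus J1 serum, adjusted by Benjamini-Hochberg over all genes tested at 0.05. The standard error is the absolute log2 fold change divided by the square root of F. A 2-fold threshold used glmTreat. The biological coefficient of variation was 6.49%. Floors of 3 counts cover counting error only. The fit was tested on simulated data.

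There were 51 gene lists with 1093 names, of which 16 could not be matched and are not analysed here. Symbols covered 85.6% of genes and 98.4% of reads, and positions are those of RefSeq for GRCm38.p6, matched by symbol. Genes named are the 10 highest and 10 lowest by log2 fold change at 10 CPM or more in the higher group with no overlap between media, the 10 largest gains and losses in CPM, up to 3 genes a direction in each list with at least 2 CPM, genes named by the study, and list members where a count or role is described. Groups and lists were chosen with earlier results of these data known. The split by chromosome was planned, and the chromosome medians per library, the 20 Mb windows and the results without chromosome 6 were added after seeing the data. Alternatives were DESeq2 (version 1.42.0) and its size factors, other filters, the 6 J1 libraries alone, a replicate block, transcript length offsets, a 2-fold threshold and leaving out each J1 library.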

Additional observations from a re-analysis of the deposited data

Results flagged for a closer look

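The 2i effect differed between 3B3L and J1 cells by more than 2-fold (glmTreat of edgeR on the difference of the effects, adjusted p under 0.05 over all genes) for 31 of the 283 genes picked by the naming rule, against 1.70% of all genes tested. Many of the 283 were picked for a large change in J1, so the shares are not comparable. All differences here are 3B3L minus J1 on the log2 scale. The causes were not tested, and line, transgenes and culture surface cannot be told apart.

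Dnmt3b differed by 3.29 and Dnmt3l by 1.69. Both have transgenes under a constitutive promoter in 3B3L cells, and whether these account for the differences was not tested. In 3B3L the log2 fold change was 0.06 ± 0.052 for Dnmt3b and -0.74 ± 0.059 for Dnmt3l. The knockouts are of Dnmt3a and Dnmt3b, so reads of Dnmt3l may also come from its own gene. Other genes that fell less or rose more in 3B3L were Zscan4c (2.93) and Zscan4f (2.76) of the 2-cell-like list, Ly6a (2.67), the imprinted Dio3 (2.60), the betaine genes Dmgdh (2.60), Bhmt (1.92) and Bhmt2 (1.83), the epiblast gene Otx2 (2.11), the hypoxia factor gene Epas1 (1.98), Plk2 (1.62) and Gsto1 (1.45).

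Genes with a lower effect in 3B3L included several hypoxia and glycolysis genes: Adm (-3.14), Car12 (-2.14), Slc16a3 (-1.92), Ndrg1 (-1.65), Ddit4 (-1.55), Egln1 (-1.39), Vegfa (-1.32) and Slc2a3 (-1.34). Slc2a3 is on chromosome 6, whose median differed by 0.44 in J1 and by 0.03 in 3B3L. The Notch ligand gene Dll1 differed by -3.87, Gm364 on the X chromosome by -5.45, the imprinted Peg12 by -2.19, the cohesin gene Smc1b by -1.99, Tgm2 by -1.90, Mlxipl by -1.89, Pdgfrb by -1.64 and Gstm5 by -1.61. Tlx2, also on chromosome 6, differed by -5.95, but it had no reads in J1 serum, so the size of this fitted value has no bound. Gdf1 differed by -9.78, and its reads cannot be told from those of Cers1, with which it is transcribed.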

How the results depend on the processing

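The counts of genes called higher (5940) and lower (5880) stayed between 5273 and 5941 and between 5087 and 6491 with other size factors, filters, DESeq2, the J1 libraries alone, length offsets, without chromosome 6 and with each J1 library left out. A 2-fold threshold left 921 higher and 1835 lower. Of 1018 distinct list members tested, 817 were called, 745 to 818 in the alternatives and 273 at the 2-fold threshold. Replicate numbers did not pair the libraries: same-numbered libraries correlated by -0.02, 0.00 and -0.10 in their deviations from group means. A replicate block over the J1 libraries gave 5400 higher, 5520 lower and 785 list members called.

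The median of the mesoderm and endoderm list turned from -0.28 to 0.24 with at least 10 counts in every J1 library, when 6 members were called. Ccnd1 turned to -0.0387 with length offsets. The genes read in 2i alone numbered 3 to 8 and those read in serum alone 28 to 36 with 1 library left out, and the latter 12 at 2 CPM. The difference between lines was called for 182 of the named genes with no fold threshold. Low counts limit the Hox, 2-cell-like and neuroectoderm lists. Leaving out chromosome 6 was chosen after the data were seen.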
